A study of Mus musculus with 12 samples.

Results

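Expi, Alox12e, Tppp3 and Hopx are 4 genes of epithelial cells that were followed here through primary tumours and lung metastases of a mouse squamous cell carcinoma. They were chosen by their measured ratios in the irradiated primary tumours, in earlier results from the same arrays, so the rise in those tumours is given as a description and supports nothing further. They are 4 of the 27670 genes and other named features on the array, and 5 of its 41174 probes. Expi has a pair of probes and is now named Wfdc18, Tppp3 stands in the array's design as 2700055K07Rik, and Hopx stands there as Hod. The label of a rise in irradiated primaries held for Expi, Alox12e and Tppp3 by the rule used here, at least 2-fold in both dye orientations. It did not hold by that rule for Hopx, whose log2 ratios to the unirradiated primary were 0.58 after gamma rays and 0.90 after carbon ions.

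NR-S1, a squamous cell carcinoma of the mouse, was grown in the hind leg of male C3H/HeMsNrs mice until the tumour measured 7.5 mm across. The unirradiated primary received no treatment, the gamma primary received 8 Gy of gamma rays and the carbon primary received 5 Gy of carbon ions, and all 3 were taken 1 week later. The unirradiated, gamma and carbon metastases were lung tumours taken at 2 weeks, and in the last 2 it was the leg tumour that had been irradiated. Primaries and metastases came from different mice, per the series' design text. Laser microdissection was used to collect the tumour cells, every RNA is labelled as clone 1, and each condition is represented by 1 RNA. Each pair of RNAs compared on the arrays was hybridised on 2 two-colour arrays with the dyes exchanged. The SD given below is over those 2 orientations and leaves out the spread between mice, so no difference has a replicate check and no p-value was computed.

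Expi encodes a small secreted protein with a whey acidic protein core, a fold best known from milk proteins and protease inhibitors, and it was described in mammary epithelium. Alox12e encodes an epidermal lipoxygenase, an enzyme that adds oxygen to polyunsaturated fatty acids such as arachidonic acid. Tppp3 encodes a microtubule-binding protein of the tubulin polymerization promoting family that is abundant in ciliated cells of the airway. Hopx encodes a homeodomain protein that does not bind DNA by itself, acts through partners such as serum response factor, and marks alveolar type 1 cells in the lung as well as differentiating keratinocytes. In lung metastases, RNA from airway and alveolar cells of the host can carry the same transcripts.

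The tumour identity of the RNAs was checked first. Of 15 markers of basal keratinocytes, 13 to 15 were well above background on every array of each RNA, and their summed signal lay between 584267 and 1163381 in all 6 RNAs. Signals well above background made up 53.8% to 68.8% of the spots in a channel. RNA of other tissue differed between the groups. The summed signal of 20 skeletal muscle markers was 59946 to 106070 in the unirradiated primary, 18378 to 19511 in the gamma primary, 41166 to 55141 in the carbon primary and 6262 to 11197 in the metastases. The summed signal of 11 alveolar type 2 markers was 18619 to 77844 in the primaries and 547031 to 1594469 in the metastases. With bulk RNA, fewer cells of a type and less RNA per cell cannot be told apart.

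The windows around the annotated starts of Expi and Alox12e are printed because these 2 genes had the most similar pattern over the arrays. Each runs from 250 bases before to 50 bases after the start, 5′ to 3′, from RefSeq's promoters of GRCm38.p6. Expi lies at chr11:83709004-83711360 and its window at chr11:83708754-83709053 on the plus strand. Alox12e lies at chr11:70315610-70322720 and its window at chr11:70322481-70322780 on the minus strand. Capitals mark a match to the TATA box letters TATAAA.
Expi: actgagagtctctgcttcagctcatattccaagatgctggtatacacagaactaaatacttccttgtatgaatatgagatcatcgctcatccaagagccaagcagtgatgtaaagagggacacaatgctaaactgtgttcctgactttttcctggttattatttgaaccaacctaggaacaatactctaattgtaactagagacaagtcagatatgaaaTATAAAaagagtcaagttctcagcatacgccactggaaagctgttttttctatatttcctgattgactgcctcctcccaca
Alox12e: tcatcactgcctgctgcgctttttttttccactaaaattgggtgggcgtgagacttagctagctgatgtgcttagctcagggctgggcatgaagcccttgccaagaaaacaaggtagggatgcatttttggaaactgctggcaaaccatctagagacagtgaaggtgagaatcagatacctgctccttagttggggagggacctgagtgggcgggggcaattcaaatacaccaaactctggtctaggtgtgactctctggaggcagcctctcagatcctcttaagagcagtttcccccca
The TATA box match of Expi begins 31 bases before the start, and 13.6% of 32851 promoter windows of this length hold TATAAA on either strand. No window of Expi, Alox12e or Hopx held the interferon-stimulated response element core GAAANNGAA (8.56% of windows), the gamma-activated site TTCNNNGAA (8.30%) or the AP-1 letters TGANTCA (7.81%) on either strand. Hopx, at chr5:77086986-77115123, has a pair of windows in this set, and neither held TATAAA. Tppp3 lies at chr8:105467492-105471422. A match or its absence describes the letters of these windows only.

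Expi was far higher in both irradiated primaries than in the unirradiated primary. Its processed signal, in arbitrary units that cannot be compared between probes, had a lowest value of 219, a median of 371 and a highest of 921 over the 10 arrays of the unirradiated primary. The 4 arrays of the gamma primary read 11966, 11673, 12604 and 12488. The 4 arrays of the carbon primary read 20417, 20722, 16587 and 17460. Every irradiated reading was above every unirradiated one, and the carbon readings were all above the gamma readings. The log2 ratio to the unirradiated primary was 4.32 and 4.10 in the 2 orientations after gamma rays, a mean of 4.21 ± 0.16 (SD) or 18.5-fold. After carbon ions it was 4.43 and 4.47, a mean of 4.45 ± 0.03 or 21.9-fold. The second Expi probe gave 3.48 ± 0.19 and 3.67 ± 0.13, so both probes placed the gene among the 38 highest of the genes measured.

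Alox12e was the member with the largest gap between the 2 kinds of radiation. Its signal over the 10 arrays of the unirradiated primary had a lowest value of 357, a median of 477 and a highest of 1290. The gamma primary read 6463, 6592, 6593 and 7308. The carbon primary read 31418, 33416, 26030 and 26701. The 3 groups of readings did not overlap. The log2 ratio to the unirradiated primary was 3.54 ± 0.19 after gamma rays, which is 11.7-fold, and 4.84 ± 0.25 after carbon ions, which is 28.6-fold.

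Tppp3 rose less steeply. It read 181 to 341 with a median of 266 in the unirradiated primary, 886, 961, 1073 and 1165 in the gamma primary, and 1756, 1900, 1566 and 1545 in the carbon primary. The groups did not overlap. Its log2 ratio was 1.84 ± 0.31 after gamma rays and 2.33 ± 0.25 after carbon ions, or 3.59-fold and 5.01-fold, with the higher value in each pair on the array that carried the irradiated RNA in Cy5.

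Hopx was already bright in the unirradiated primary, at 2153 to 3649 with a median of 2554. The gamma primary read 3994, 3700, 4379 and 4256, and the carbon primary read 5696, 6687, 5399 and 4970. The readings of the irradiated primaries lay above all unirradiated ones, but the distance was small. The log2 ratio was 0.58 ± 0.04 after gamma rays and 0.90 ± 0.01 after carbon ions, and neither passed the 2-fold rule.

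In all, 3 of the 4 genes were called higher in the gamma primary, where 2.23% of 15579 measured genes were called higher. The same 3 were called higher in the carbon primary, where 3.91% of 15636 genes were. The median log2 ratio of the 4 genes was 2.69 after gamma rays and 3.39 after carbon ions, beside medians of 0.02 and 0.02 over all measured genes. Both comparisons share the unirradiated primary, and because the rule used them, nothing is read from these counts.

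**Figure D1:**
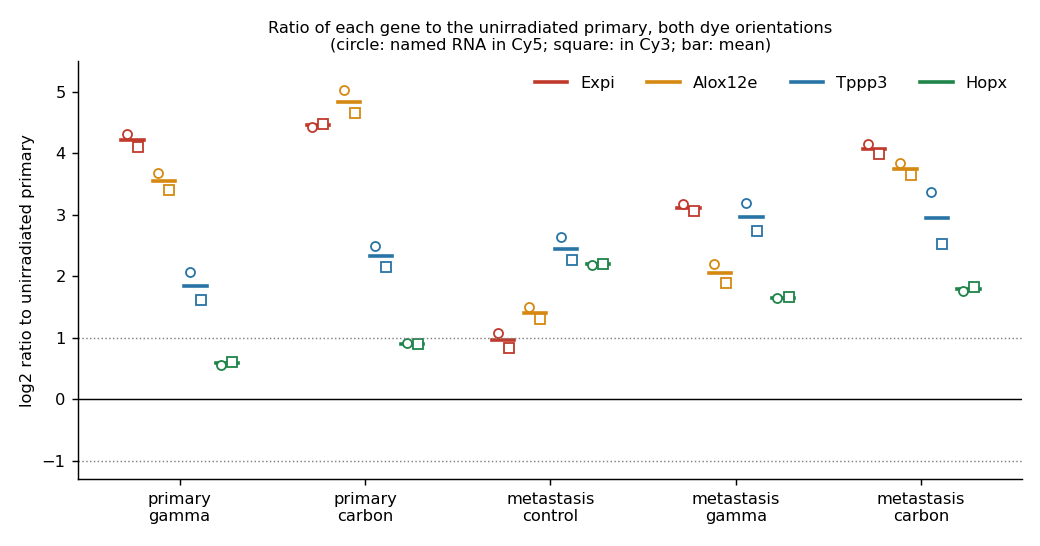
Log2 ratio of Expi, Alox12e, Tppp3 and Hopx to the unirradiated primary in the other 5 RNAs; circles are arrays with the named RNA in Cy5, squares in Cy3, bars the mean of the 2, and dotted lines the 2-fold limits. Expi has its highest ratios in the irradiated primaries and Alox12e in the carbon primary, with 4.84, followed by the carbon metastasis, with 3.74. Hopx passes 2-fold in the metastases but not in the primaries.

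The arrays that set the 2 irradiated primaries against each other hold the same RNAs as the comparisons behind the choice of genes, so their values are a description as well. On them Alox12e was the only member called higher after carbon ions, with log2 ratios of 1.95 and 1.90, a mean of 1.93 ± 0.04 or 3.80-fold. That is 1 of 4 members, against 0.884% of 15038 measured genes called higher. Expi was at 0.45 ± 0.10, Tppp3 at 0.47 ± 0.12 and Hopx at 0.28 ± 0.04, all above 0 in both orientations and none past 2-fold. The doses differed, at 5 Gy of carbon ions and 8 Gy of gamma rays.

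The difference between carbon ions and gamma rays can also be taken through the unirradiated primary, and for Alox12e the routes disagreed. The direct arrays gave 1.93 and the route through the unirradiated primary gave 1.30, a gap of 0.63. For Expi the routes gave 0.45 and 0.24, for Tppp3 0.47 and 0.48, and for Hopx 0.28 and 0.32. The direct arrays lie on a single slide, while the route through the unirradiated primary joins arrays of different slides. That route also takes in 2 readings of the unirradiated primary. Its normalized Alox12e level was 9.215 beside the gamma primary and 9.892 beside the carbon primary.

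The signal of the unirradiated primary itself differed between arrays with different partner RNAs. Its partners were the unirradiated and gamma metastases on slide 1 and the carbon metastasis and gamma primary on slide 2. On slide 3 its partner was the carbon primary. Partner and slide thus cannot be told apart between slides. For Expi the unirradiated primary read 242 and 231 beside the unirradiated metastasis, whose own signal was 406 and 438. It read 219 and 233 beside the gamma metastasis, at 1961 and 2226, so it was no higher there than beside the dimmest partner. It read 375 and 367 beside the carbon metastasis, at 6122 and 6793. It read 651 and 517 beside the gamma primary and 916 and 921 beside the carbon primary. The same RNA thus read highest on the arrays with the brightest partner, in both dyes. The second Expi probe ran from 218 beside the unirradiated metastasis to 1701 beside the carbon primary. Alox12e read 357 to 564 on 8 arrays, and 1290 and 966 beside the carbon primary. The processed signals of Tppp3 and Hopx showed no clear order of this kind. On normalized levels the unirradiated primary also differed for them, by less: Hopx ran from 11.42 beside the gamma primary, its dimmest partner, to 11.69 beside the unirradiated metastasis, its brightest, and Tppp3 from 8.20 beside the gamma primary to 8.57 beside the carbon metastasis.

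**Figure D2:**
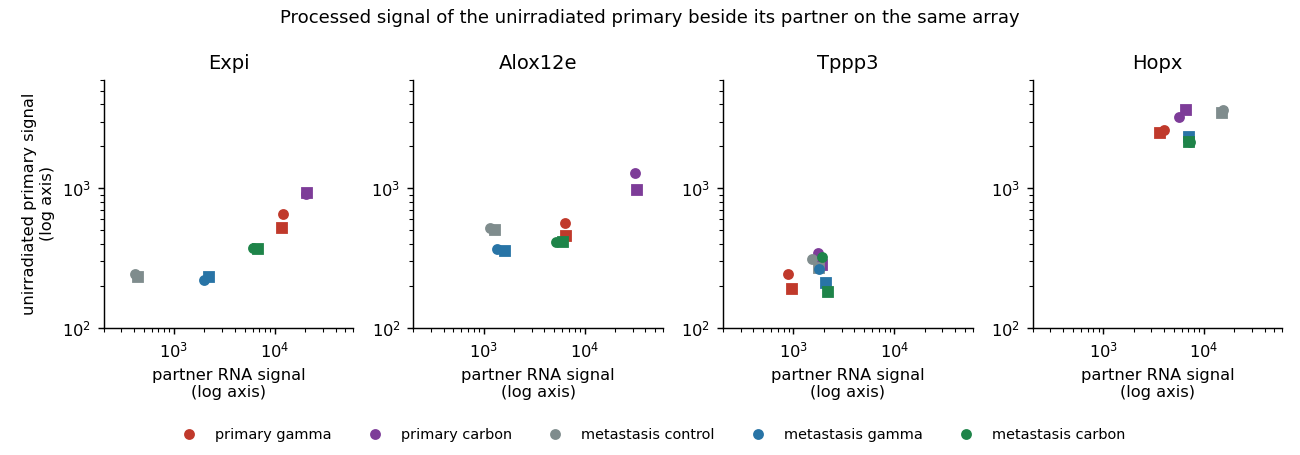
Processed signal of the unirradiated primary (vertical, log axis) against that of the partner RNA on the same array (horizontal, log axis) for each gene; 10 arrays, circles with the unirradiated primary in Cy5 and squares in Cy3, coloured by partner. For Expi the points are level at 219 to 242 beside the unirradiated and gamma metastases and then climb to 916 and 921 beside the brightest partner. For Tppp3 and Hopx the signals show no clear climb. Partner and slide cannot be told apart between slides.

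Over all probes with a partner level above 9 on the log2 scale, this shift was near 0 where the partner lay within 2-fold of the control. On the arrays of the carbon primary the median shift of the control's normalized level, against its other arrays, was 0.01 for 11946 probes within 2-fold. It was 0.19 for 77 probes whose partner was 8-fold to 32-fold brighter and 0.55 for 17 probes over 32-fold brighter. On the arrays of the gamma primary it was 0.05 for 29 probes with a partner 8-fold to 32-fold brighter. On the arrays of the gamma metastasis it was 1.25 for 35 probes over 32-fold brighter. Partner brightness was taken over the mean of the control on its other arrays, and the shift was taken from that same mean. A low mean raises both, so part of the rise with brightness can be built in. The source of the shift was not tested.

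A shift of that kind makes the printed ratios of Expi and Alox12e depend on which control reading is used. With the unirradiated primary read on the 2 arrays it shared with the unirradiated metastasis, a choice made after the data were seen, single-channel levels gave Expi 48.5-fold in the gamma primary and 67.5-fold in the carbon primary. Alox12e came to 13.9-fold and 54.5-fold in the same way, and Tppp3 to 3.40-fold and 5.07-fold. Hopx came to 1.25-fold and 1.61-fold. The chosen arrays held the highest Hopx level of the unirradiated primary, so the choice could only lower Hopx and is no check of the 2-fold rule. These values cross arrays and slides, and the within-array ratios remain the ones reported.

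In the unirradiated metastasis, 3 of the 4 genes were called higher than in the unirradiated primary, but not the same 3. Here 10.4% of 17103 measured genes were called higher. Tppp3 had a log2 ratio of 2.45 ± 0.27, Hopx 2.19 ± 0.02 and Alox12e 1.40 ± 0.13. Expi had log2 ratios of 1.08 and 0.84, a mean of 0.96 ± 0.17, and was not called. Thus Hopx, the weakest of the 4 in the irradiated primaries, was 4.57-fold higher in the unirradiated metastasis, and Expi, one of the strongest there, was 1.94-fold higher.

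All 4 genes were called higher in the gamma metastasis and all 4 in the carbon metastasis than in the unirradiated primary, where 8.82% of 17664 and 8.20% of 16283 measured genes were called higher. With median centring Hopx was not called in either, at 1.28 and 1.47, which left 3 of 4. In the gamma metastasis the log2 ratios were 3.12 ± 0.08 for Expi, 2.05 ± 0.21 for Alox12e, 2.96 ± 0.33 for Tppp3 and 1.65 ± 0.01 for Hopx. In the carbon metastasis they were 4.07 ± 0.11 for Expi, 3.74 ± 0.14 for Alox12e, 2.95 ± 0.59 for Tppp3 and 1.79 ± 0.05 for Hopx. The SD of Tppp3 in the carbon metastasis was the widest of all, with 3.36 in one orientation and 2.53 in the other.

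The contrast between metastases was taken through the unirradiated primary, as differences of arrays of the same orientation, in which a gene's dye effect cancels. Expi was higher in the gamma than in the unirradiated metastasis, by 2.16 ± 0.10 on the log2 scale or 4.47-fold. It was the only member called there, 1 of 4 against 1.84% of 17346 measured genes. Its signal was 406 and 438 in the unirradiated metastasis, 1961 and 2226 in the gamma metastasis and 6122 and 6793 in the carbon metastasis. The 3 pairs of readings, each from 1 RNA, did not overlap. Alox12e differed by 0.65 ± 0.08, Tppp3 by 0.51 ± 0.06 and Hopx by -0.54 ± 0.01 between the gamma and the unirradiated metastasis.

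The carbon metastasis had Expi 3.11 ± 0.06 and Alox12e 2.34 ± 0.01 above the unirradiated metastasis on the log2 scale, or 8.62-fold and 5.08-fold. These were 2 of 4 members called higher, against 1.85% of 16732 measured genes, and Expi had rank 9 from the top. Tppp3 differed by 0.50 ± 0.32 and Hopx by -0.40 ± 0.03. Between the carbon and the gamma metastasis Alox12e alone was called, 1.70 ± 0.07 higher or 3.24-fold, with rank 10 of 17130, where 0.239% of genes were called higher. Expi was 0.95 ± 0.04 higher in the carbon metastasis and just missed the rule. The level of Expi in the unirradiated primary was 7.98 on the arrays of the unirradiated metastasis, 8.37 on those of the gamma metastasis and 9.14 and 9.06 on the 2 of the carbon metastasis, so these contrasts depend on it. Single-channel levels, which leave the control out, gave Expi 2.54 for gamma against unirradiated, 4.22 for carbon against unirradiated and 1.68 for carbon against gamma, a choice made after the data were seen. For Alox12e they gave 0.65, 2.63 and 1.98. Alox12e read higher after carbon ions than after gamma rays in primaries, 3.80-fold on the direct arrays, and in metastases, 3.24-fold through the unirradiated primary. By that same route the log2 difference was 1.30 in primaries, beside 1.70 in metastases. Only the leg tumour had been irradiated in the metastasis groups. The unirradiated and gamma metastases were hybridised on 1 slide and the carbon metastasis on another, so slide and group cannot be told apart in the contrasts with the carbon metastasis.

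Comparison of the sites after the same radiation divided the 4 genes into pairs. Between the gamma metastasis and the gamma primary, Tppp3 was 1.12 ± 0.02 and Hopx 1.07 ± 0.03 higher in the metastasis, 2 of 4 members against 7.79% of 17243 genes called higher. Expi was lower there by 1.09 ± 0.08 and Alox12e by 1.49 ± 0.02, as log2 ratios of -1.09 and -1.49, 2 of 4 members against 0.905% called lower. The calls of Tppp3 and Hopx rest on the normalization: with Agilent's processed log ratios they were 0.96 and 1.00, with median centring 0.86 and 0.71, and with scaling between arrays 0.39 and 0.73, none of them called. Expi was not called with either smaller offset or the mean of all probes, the weakest of these at -0.94, while scaling between arrays gave -2.17 for Expi and -2.31 for Alox12e. Between the carbon metastasis and the carbon primary, Alox12e was the only member called, lower in the metastasis at -1.10 ± 0.11, where 1.93% of 16214 genes were called lower. That call was lost with either smaller offset, with Agilent's ratios and with the authors' table, at -1.07 to -1.10, because 1 orientation fell short. With scaling between arrays Alox12e was at -1.76, and Expi was called lower as well at -1.09. None of the 4 was called higher, against 6.86% of genes, with Hopx at 0.89 ± 0.06, Tppp3 at 0.62 ± 0.34 and Expi at -0.39 ± 0.14. These comparisons pass through the unirradiated primary, whose Expi and Alox12e readings differed between the arrays joined. The gamma metastasis and the gamma primary were on different slides, as were the carbon metastasis and the carbon primary. Slide and site thus cannot be told apart.

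The levels put the 6 RNAs in a different order for each gene. The levels are log2 intensities normalized within and between arrays, given as the mean over arrays, and neighbours whose arrays overlap are said to. Expi was highest in the carbon primary at 14.02, then the gamma primary at 13.56, the carbon metastasis at 13.17 and the gamma metastasis at 11.48. The unirradiated metastasis, at 8.94, lay inside the range of the unirradiated primary, 7.91 to 9.64. Alox12e ran from the carbon primary at 14.67 through the carbon metastasis at 13.00, the gamma primary at 12.73, the gamma metastasis at 11.02 and the unirradiated metastasis at 10.36 to the unirradiated primary at 9.26, with no overlap between neighbours.

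For Tppp3 and Hopx the metastases stood at the top. Tppp3 was at 11.52 in the carbon and 11.37 in the gamma metastasis, which overlapped. It was at 10.73 in the unirradiated metastasis and 10.60 in the carbon primary, which overlapped too, then at 10.08 in the gamma primary and 8.35 in the unirradiated primary. Hopx was highest in the unirradiated metastasis at 13.88, ahead of the carbon and gamma metastases at 13.34 and 13.21, which overlapped. Its primaries followed in the order carbon, gamma and unirradiated at 12.35, 12.03 and 11.54.

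**Figure D3:**
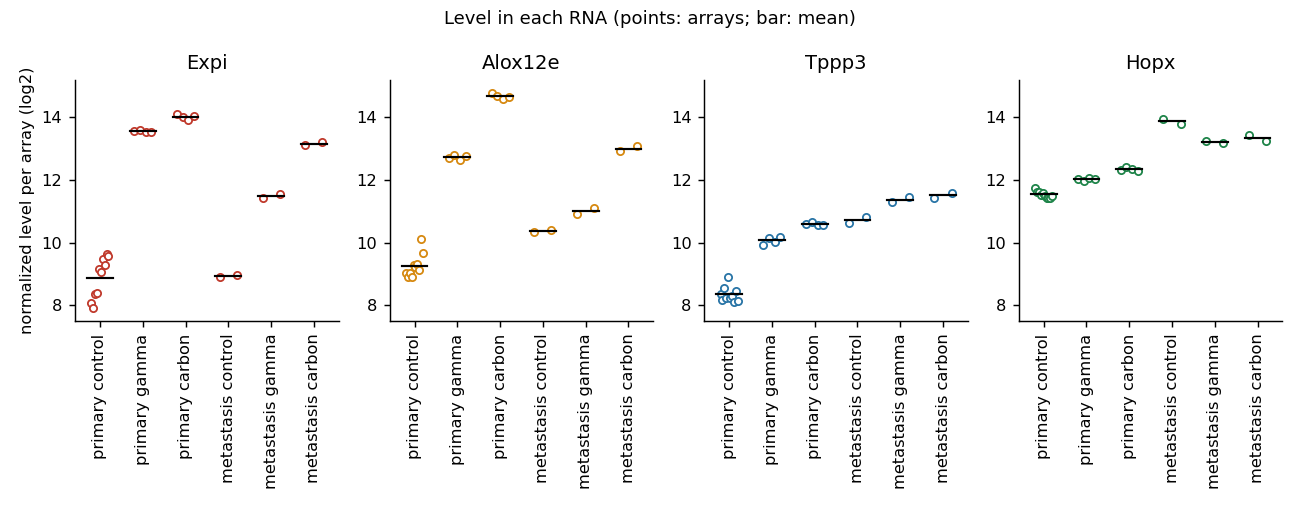
Normalized level (log2 intensity) of the brightest probe of each gene in the 6 RNAs; points are arrays (10 of the unirradiated primary, 4 of each irradiated primary, 2 of each metastasis) and bars their mean. Levels cannot be compared between genes. Expi falls to 8.94 in the unirradiated metastasis, where Hopx has its highest level, 13.88.

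Likeness was measured as the root mean square difference of the 5 log2 ratios to the unirradiated primary, over 12920 genes measured in all 5, with Pearson's r over those 5 points as a description. All 5 ratios share the control RNA. Expi and Alox12e differed by 0.64 (r = 0.89), and none of the other 12920 genes lay nearer to Expi than Alox12e did. Tppp3 and Hopx differed by 1.16 (r = 0.70), and 240 genes lay nearer to Tppp3 than Hopx did, while Expi and Hopx differed by 2.63 and ran opposite ways (r = -0.77). Among the 5 ratios are those of the irradiated primaries, by which the genes were chosen.

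The 5 genes nearest to each member, leaving out the other members, are given here. Nearest to Expi came Calml3, a calmodulin-like protein of differentiating epithelium, at 1.11 (r = 0.91). Prelp, Rtp4, Psmb8 and Oasl2 followed at 1.29 to 1.33, of which the last 3 are induced by interferon. In that order r with Expi was 0.81, 0.35, 0.20 and 0.07, so the last 3 were near it in size more than in pattern. Nearest to Alox12e came Prelp, a proteoglycan of connective tissue, at 0.93 (r = 0.94), then Psmb9, Psmb8, Calml3 and Oasl2 at 1.05 to 1.11. For these 4, r with Alox12e was 0.54, 0.54, 0.76 and 0.47 in that order. The brighter Prelp probe stands for that gene, and the dimmer one gave lower ratios of 0.52 and 0.89 in the gamma and carbon primaries. Nearest to Tppp3 were H2-Ab1, Uba7, Pou3f1, Sp110 and Ifit3 at 0.26 to 0.36, and nearest to Hopx were Mettl7a1, Hexa, Marveld2, Cys1 and Gm2a at 0.13 to 0.18. H2-Ab1 is a class II antigen-presenting molecule, and Ifit3 is one of the interferon response genes counted below. Hexa and Gm2a serve lysosomal ganglioside breakdown, and Marveld2 is a tight junction protein.

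The neighbours of Alox12e on chromosome 11 are lipoxygenases too. Alox12, the platelet-type 12-lipoxygenase, and Alox15, which makes 12- and 15-hydroperoxides in the mouse, flank it. Alox15 had log2 ratios of 1.97 ± 0.04 in the gamma primary and 2.85 ± 0.20 in the carbon primary, and Alox12 had 1.26 ± 0.22 and 1.67 ± 0.15, and all 4 values were called higher. The unirradiated primary had Alox15 well above background on 1 of its 2 arrays with the gamma primary, 1 of 2 with the gamma metastasis and 1 of 2 with the carbon metastasis. On the direct arrays Alox15 was 1.11 higher after carbon ions, and Alox12 0.44. In the unirradiated metastasis they were at 0.12 and -0.59, where Alox12e was at 1.40, and in the carbon metastasis Alox15 was called higher at 1.86 while Alox12 was at 0.74. The genes beyond them, Rnasek and Pelp1, lay between -0.15 and 0.12 in the irradiated primaries. Another Alox12 probe, a dim one, read -0.04 and 0.06 there. Whether the probes of these related genes share hybridizing sequence was not tested.

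**Figure D4:**
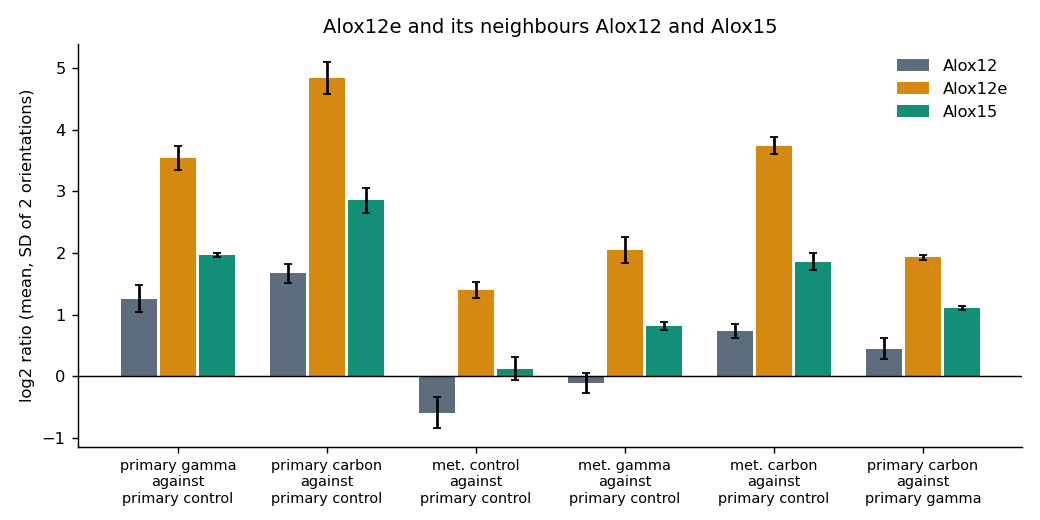
Log2 ratios of Alox12, Alox12e and Alox15 in the 5 comparisons with the unirradiated primary and in the direct comparison of carbon with gamma primary; bars are means and error bars the SD over 2 dye orientations. Alox12e has the highest bars, up to 4.84; the unirradiated primary had Alox15 above background on 1 of 2 arrays with the gamma primary, the gamma metastasis and the carbon metastasis, so the order of the genes is not exact there.

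Most other genes of eicosanoid metabolism did not pass the fold rule in the primaries. Of 19 genes on the array besides Alox12e, 16 were measured in each irradiated primary. Alox15 and Alox12 were called higher in both, and Ptgs2, the inducible cyclooxygenase, was called lower in both at -1.82 ± 0.02 and -1.99 ± 0.01; 1.26% and 1.07% of all measured genes were called lower. The median of the 16 was -0.11 after gamma rays and -0.18 after carbon ions. Hpgd, which breaks down prostaglandins, was well above background on all 4 arrays of each irradiated primary and on none of the 10 of the unirradiated primary. It was at least 1.35-fold higher after gamma rays and at least 1.71-fold higher after carbon ions. The epidermal barrier lipoxygenase Alox12b read -0.10 and 0.04. Aloxe3 stood above background on all 10 arrays of the unirradiated primary but on 1 of 4 arrays of the gamma primary and 0 of 4 of the carbon primary, so no ratio is given. In the unirradiated metastasis the leukotriene genes Alox5ap, Alox5 and Ltc4s were called higher, at 3.15, 2.35 and 1.84.

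The relatives of Expi moved in several directions. Of 15 other genes with a whey acidic protein core on the array, 8 were measured in each irradiated primary and 1 was called higher in each, Wfdc12. On these arrays the unirradiated primary had Wfdc12 not well above background, so it was at least 2.23-fold higher after gamma rays and at least 2.94-fold higher after carbon ions. Slpi, a secreted inhibitor of leukocyte proteases, was called lower in the gamma primary at -1.15 ± 0.19, although its dimmer probe read -0.31. Wfdc21, which neighbours Expi on the chromosome, was called lower in the carbon primary at -1.53 ± 0.08 and read -0.77 in the gamma primary. In the unirradiated metastasis Wfdc21 was called higher at 4.83 ± 0.06, where Expi was at 0.96. Ccl4 and Heatr6, a gene farther out on each side, read 0.28 and 0.24 in the gamma primary and 0.41 and 0.17 in the carbon primary. For Tppp3, the only relative measured was Tppp, whose signal in the unirradiated primary was not well above background beside either irradiated primary, at 0.31 and 0.40 in the gamma and carbon primaries and 1.57 ± 0.07 in the unirradiated metastasis.

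Markers of the cell types in which Tppp3 is best known were counted beside it. Of 18 motile cilia markers on the array, 4 were measured in the gamma primary and 5 in the carbon primary, and none was called in either, with medians of -0.09 and -0.10. Foxj1, the master regulator of motile cilia, did not stand well above background in the unirradiated RNA beside either irradiated primary. It did on 1 of 4 arrays of the gamma primary and 4 of 4 of the carbon primary, at signals of 19 to 22 and 33 to 51. Over all its arrays, the unirradiated primary had Foxj1 above background on 4 of 10. These were the 2 beside the gamma metastasis, which read 596 to 627, and the 2 beside the carbon metastasis, which read 636 to 865. In the unirradiated metastasis none of 8 measured cilia markers was called, or 3 with Agilent's ratios, and Tppp3 was at 2.45. In the gamma and carbon metastases 7 of 15 and 8 of 15 were called higher, led by Dynlrb2 at 3.28 and 3.57, and Tppp3 was at 2.96 and 2.95. The summed signal of the 18 markers was 377 to 712 in the primaries, 644 to 663 in the unirradiated metastasis and 3281 to 4769 in the other metastases.

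Hopx was set beside alveolar type 1 markers in the same way. None of the 8 measured in the gamma primary and none of the 9 in the carbon primary was called higher, and Ager, the receptor that defines these cells, was not well above background on any array of either. In the metastases 6 of 11, 6 of 12 and 5 of 12 were called higher in the unirradiated, gamma and carbon groups, with Ager at 4.51, 4.41 and 4.42 while Hopx was at 2.19, 1.65 and 1.79. Ager differed by -0.10 and -0.09 between the irradiated groups and the unirradiated metastasis, where Hopx differed by -0.54 and -0.40. These values pass through the unirradiated primary, whose Ager signal ran from 3 to 448 and was above background on 6 of 10 arrays. All 6 were arrays shared with a metastasis, and none was shared with an irradiated primary. Ager's own signal was 7487 to 8913 in the unirradiated, 3211 to 3897 in the gamma and 3636 to 4267 in the carbon metastasis. Hopx read 15106 to 15287, 6934 to 7048 and 7080 to 7298 there. Processed signals were not scaled between arrays, and Hopx in the unirradiated primary differed on the same arrays too. It read 3622 and 3482 beside the unirradiated, 2297 and 2327 beside the gamma and 2157 and 2153 beside the carbon metastasis. The signals alone thus do not show a fall of either gene. Of 12 measured muscle genes tied to Hopx and serum response factor, none was called in either irradiated primary. How much of the Tppp3 or Hopx signal in metastases came from lung cells was not tested.

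**Figure D5:**
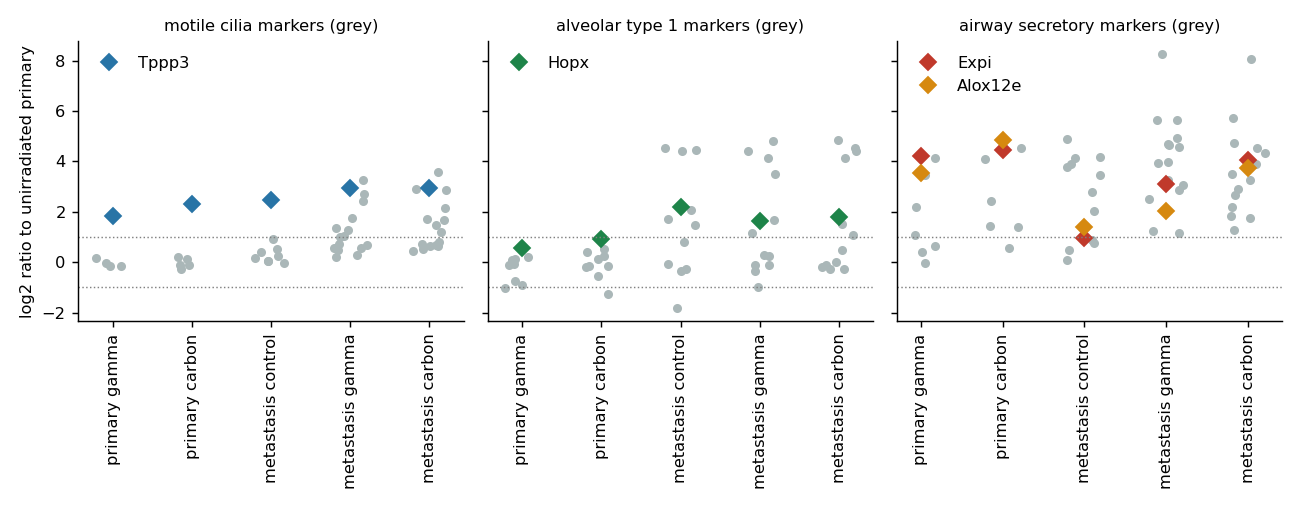
Log2 ratio to the unirradiated primary of the measured genes of 3 marker lists (grey points) in the other 5 RNAs, with Tppp3, Hopx, Expi and Alox12e (diamonds) beside the list drawn with each; dotted lines are the 2-fold limits. In the irradiated primaries no cilia marker passes 2-fold while Tppp3 stands at 1.84 and 2.33.

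Some airway secretory markers also rose in the irradiated primaries. Of the 15 on the array, 8 were well above background on no array of the gamma primary and 7 on none of the carbon primary. In the gamma primary 3 of 7 measured were called higher, Cyp2f2 at 4.14 ± 0.25, Aldh1a1 at 3.45 ± 0.33 and Gabrp at 2.19 ± 0.21. In the carbon primary 5 of 6 were, led by Cyp2f2 at 4.54 ± 0.20 and Aldh1a1 at 4.09 ± 0.21. Cyp2f2 is a cytochrome P450 of club cells and Aldh1a1 a retinal dehydrogenase found in many epithelia. Scgb1a1, the defining secretoglobin of club cells, read -0.02 and 0.10 in the irradiated primaries and was above background on only some of their arrays. In the metastases Scgb1a1 was called higher at 4.88, 5.63 and 5.73 in the unirradiated, gamma and carbon groups. The signal of the unirradiated primary behind these ratios was uneven. Over its 10 arrays it ran from 17 to 2130 and was above background on 7.

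Among markers of epithelial differentiation some rose with the members and most did not. Of 27 keratinocyte differentiation markers measured in the gamma primary, 5 were called higher and 1 lower, with Sprr2d at 3.51 ± 0.14, Calml3 at 3.32 ± 0.05 and Crct1 at 2.94 ± 0.03. In the carbon primary 3 of 25 were called higher, Calml3 at 3.34 ± 0.03, Sprr2d at 2.38 ± 0.15 and Crct1 at 1.45 ± 0.01, and 2 were called lower. Crct1 and Sprr2d, parts of the cornified layer, were lower after carbon ions than after gamma rays on the direct arrays, at -1.58 and -1.39, the opposite order to Alox12e. The median of the list was 0.19 and 0.13. Of 19 simple epithelial markers measured in the gamma primary, Krt7 and Ehf were called higher at 2.38 ± 0.16 and 1.75 ± 0.02 and 2 keratins, Krt18 and Krt19, were called lower. Ltf, the lactoferrin gene of milk and secretory epithelia, was called higher in both irradiated primaries at 2.51 and 1.89. Of 13 mammary markers on the array, 7 were well above background on no array of the gamma primary. In the carbon primary these were 8, and Csn2, Csn3 and Wap were among them in both. Of 5 measured in each, 1 was called higher in the gamma primary and 3 in the carbon primary. In the latter Mfge8 was at 1.48 and Xdh at 1.24.

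Several lists that are not epithelial moved in the same comparisons. All 30 interferon response genes were called higher in each of the 5 RNAs against the unirradiated primary, with medians of 2.53 and 3.84 in the gamma and carbon primaries and 3.25 in the unirradiated metastasis, where Expi was at 0.96. Of 20 skeletal muscle markers, 15 were called lower in the gamma primary and 7 of 20 in the carbon primary. T and NK cell markers were called higher for 5 of 13 and 9 of 14 measured. The part of these shifts in the values of Expi, Alox12e, Tppp3 and Hopx was not tested.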

How the data were processed

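Cy5 and Cy3 intensities of 12 Agilent arrays were used. The design was 014868 and images were read with Feature Extraction 9.1.3.1 under protocol GE2-v5_91_0806, per the file headers. The deposited intensities are mean spot and median background brightness, not normalized, and Agilent's processed signal intensities, which are background-subtracted and dye-normalized per the file headers. Cy5 over Cy3 of these processed signals is deposited as a log10 ratio per spot, and the authors' value table equalled it within 0.005. What else the authors did is not stated in the sources used.

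In R 4.3.3 with limma 3.58.1, background was corrected by normexp with an offset of 50, which pulls ratios of dim spots toward 0. Ratios were then normalized by loess within arrays with control spots at weight 0, flagged spots (16 to 58 per array) were left out and spots of a probe averaged. No spot was saturated. Single-channel levels also had Aquantile normalization between arrays. Probes were named through RefSeq's gene table of GRCm38.p6: 22951 were matched through an accession, 6659 through the current symbol and 3109 through a former one. The brightest probe, by its mean normalized intensity over the arrays, stood for a gene. A gene was measured if each array of a comparison had it well above background in 1 RNA or both, and called if its log2 ratio reached 1 in size, in the same direction, in each of the 2 orientations. Of the 11 comparisons, 6 were direct and 5 went through the unirradiated primary. The procedure was tested on simulated data. The labels give 1 RNA per condition, so no test across samples was possible, and the number of arrays limits the precision.

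The genes and the marker lists were chosen with earlier results of these data known. Named besides the members are up to 4 genes of each list that passed the fold rule with the largest size, the nearest relatives and neighbours whatever their value, defining markers, and the 5 genes most like each member. Alternatives were the background offset, Agilent's ratios, the authors' table, the normalization, the filter, each orientation alone and the mean of all probes. Tables were made in Python 3.11.15 (pandas 2.3.3, numpy 2.4.6) and figures with matplotlib 3.10.9.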

Additional observations from a re-analysis of the deposited data

Results flagged for a closer look

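Hopx differed in direction between primaries and metastases. After gamma rays its log2 ratio to the unirradiated tumour of the same site was above 0 in both orientations in the primary, at 0.56 and 0.61, and below 0 in both in the metastasis, at -0.53 and -0.55, a difference of 1.12. After carbon ions the values were 0.91 and 0.89 in the primary and -0.42 and -0.38 in the metastasis, a difference of 1.30. None of the values passed 2-fold, and the differences were not tested, since each condition had 1 RNA. The same unirradiated primary stands on both sides, and in the metastasis groups the leg tumour had been irradiated, not the lung.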

How the results depend on the processing

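No paired analysis was possible because every replicate number in the labels is 1, and a slide term could not be fitted because both arrays of each dye swap lie on 1 slide. Over 44 member ratios (4 genes in 11 comparisons) and 11 alternatives, no called ratio changed its sign. The number of members called higher differed by over 1.5 times in 1 comparison, the gamma metastasis against the gamma primary, which fell from 2 to 0 with Agilent's processed log ratio, the authors' value table, median centring and scaling between arrays. Median centring changed 5 of 44 calls, and Alox12e in the unirradiated metastasis (1.32) and Hopx in the gamma and carbon metastases (1.28 and 1.47) were among them. In the other direction, Expi in the unirradiated metastasis was called with Cy5 alone (1.08). Alox12e in the carbon metastasis against the carbon primary missed the rule with offset 0 (-1.07), offset 16 (-1.08), Agilent's ratio (-1.08) and the authors' table (-1.10), and Expi in the gamma metastasis against the gamma primary missed it with offset 0 (-1.01), offset 16 (-1.02) and the mean of all probes (-0.94). In the primaries the calls of the 4 genes held under all 11, with Expi at 3.85 to 4.80 and 4.06 to 4.58, Alox12e at 3.41 to 4.04 and 4.66 to 5.02, Tppp3 at 1.62 to 2.10 and 2.15 to 2.56 and Hopx at 0.56 to 0.67 and 0.84 to 0.93 after gamma rays and carbon ions. Counts in the lists were small and moved more. Lipoxygenase genes called higher in the gamma primary were 1 in place of 2 with median centring, both RNAs above background or the mean of all probes. Keratinocyte markers called higher in the carbon primary were 5 in place of 3 without an offset, and those called lower were 4 with Agilent's ratios and 0 with median centring. Cilia markers called higher in the unirradiated metastasis were 3 in place of 0 with Agilent's ratios. The single-channel alternative was chosen after the data were seen. It raised Expi from 4.21 to 5.60 and from 4.45 to 6.08 in the gamma and carbon primaries. The cause of these changes was not tested.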
